A study of Mus musculus with 8 samples.

Results

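ADAMTS proteases are secreted metalloproteinases with thrombospondin repeats that cut proteins of the extracellular matrix. The 10 genes described here are Adamts1, Adamts2, Adamts4, Adamts5, Adamts7, Adamts9, Adamts12, Adamts14, Adamts15 and Adamts17, taken by symbol from 55276 symbols in the gene expression tables. All were expressed by mouse fibro-adipogenic progenitors (FAPs), the mesenchymal cells of skeletal muscle that build the transient matrix after injury, but Adamts17 was close to the detection limit early after injury. The clearest pattern was with time. In control FAPs 7 of the 10 were called higher at 7 than at 3 days post injury (dpi), against 22.7% of all genes tested. These calls did not hold without 1 of the late control libraries. Adamts17 changed most, from very few early fragments. The transcription factor Osr1 was inactivated in the mutant. Adamts17 was 2.64-fold lower in mean TPM in mutant than in control FAPs at 7 dpi, a call that passed narrowly (adjusted p = 0.0943). Adamts4 was 1.30-fold higher in the mutant at 3 dpi, but only by an unadjusted threshold (adjusted p = 0.774).

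The RNA came from FAPs sorted from the tibialis anterior muscle of adult mice. Control mice were Osr1 flox/+ CAGG Cre+ and mutant mice (Osr1cKO) were Osr1 flox/flox CAGG Cre+, and each genotype was sampled at 3 and at 7 dpi, with 2 libraries in each of the 4 groups. The Cre was tamoxifen-inducible and driven by a ubiquitous promoter, so recombination was not limited to FAPs. Every mouse had a freeze-pierce injury and tamoxifen, and every sorted cell carried at least 1 recombined Osr1 allele, whose GFP was used for the sort. The controls were therefore heterozygous rather than wild type, and no uninjured muscle was included. Each library held cells of a single mouse at 3 dpi and of several pooled mice at 7 dpi, and the study's methods name a pair of sequencers without tying them to libraries. The difference between days, pooling and any difference of sequencer cannot be told apart.

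ADAMTS enzymes are made as inactive precursors, lose their prodomain to furin-like convertases, and are held in check by tissue inhibitors of metalloproteinases, mainly Timp3. Adamts1, Adamts4, Adamts5, Adamts9 and Adamts15 cleave the large hyaluronan-binding proteoglycans versican and aggrecan. Adamts2 and Adamts14 remove the N-propeptide of fibrillar procollagens, Adamts7 and Adamts12 cleave cartilage oligomeric matrix protein, and Adamts17 is linked to fibrillin microfibrils. In regenerating muscle a versican-rich transient matrix surrounds myoblasts, and its clearance by these proteases accompanies their fusion.

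The tables hold TPM, a level corrected for transcript length and library size, so levels of different genes can be set side by side. Recovered depth was 36516515 to 51096350 fragments per library, lower in all libraries of 7 dpi than in any of 3 dpi. FAP markers summed to between 20800 and 37300 TPM in all libraries, but most of each sum was Col1a1 (12403.8 to 28083.5 TPM). The sum therefore hides how single markers moved. With time 5 of the 9 FAP markers were called higher and 3 lower in controls, and 5 higher and 2 lower in Osr1cKO. At 3 dpi 0 were called higher and 2 lower in Osr1cKO by the unadjusted threshold. Of these, Ly6a, the Sca-1 gene, had a limma log2 difference of -0.94 (adjusted p = 0.784). Leukocyte markers summed to at most 64.4 TPM endothelial markers to at most 19.3 TPM and mural markers to at most 138 TPM, and none of the marker genes was at 0 in all libraries. Several marker lists were higher at 7 dpi: tenocyte markers (Scx, Tnmd, Mkx, Fmod) summed to 46.7 to 83 TPM over the libraries of 3 dpi, to 238 to 333 TPM in controls at 7 dpi and to 550 to 677 TPM in Osr1cKO at 7 dpi. Myofiber markers summed to 6.51 to 12.5 TPM at 3 dpi, 54.3 to 55.2 TPM in controls at 7 dpi and 34.4 to 37.8 TPM in Osr1cKO at 7 dpi. Leukocyte markers reached 11 to 20.1 TPM at 3 dpi and 45.8 to 64.4 TPM at 7 dpi. Mural markers summed to 35.1 to 59.9 TPM at 3 dpi and 63.3 to 138 TPM at 7 dpi, where 4 of 6 rose in each genotype and 1 fell in Osr1cKO, with a median log2 change of 1.19 in controls and 1.24 in Osr1cKO. The part of these other cells in the ADAMTS levels was not tested, and in bulk RNA fewer cells expressing a gene and less RNA per cell cannot be told apart. Osr1 itself, measured over the whole gene, was at 105 and 91.0 TPM in controls and 70.7 and 71.9 TPM in Osr1cKO at 3 dpi, and at 67.6 and 71.6 TPM in controls and 64.4 and 60.8 TPM in Osr1cKO at 7 dpi. The genotypes did not overlap at either day, but a whole-gene value includes exons outside the deleted part and so is a weak check of the deletion. The paper reports, from its RNA sequencing, far fewer reads of the deleted exon and of the exon after it at both days.

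The 10 genes together reached 983 and 1077 TPM in the controls and 1084 and 1051 TPM in Osr1cKO at 3 dpi. At 7 dpi they reached 1545 and 1566 TPM in the controls and 1250 and 1429 TPM in Osr1cKO. Both libraries of each genotype were thus higher at 7 dpi, and the mutant libraries lay between the early libraries and the late controls. Adamts1, Adamts2 and Adamts4, in this order, were the highest in each group and made up 74.5% to 83.2% of the sum. Below them the order was less firm: neighbours among Adamts5, Adamts12 and Adamts14 overlapped in Osr1cKO at both days, as did neighbours among Adamts7, Adamts9 and Adamts15 in both genotypes at 3 dpi. Adamts17 was the lowest of the 10 at 3 dpi in both genotypes. At 7 dpi it stood above Adamts9 in controls and below it in Osr1cKO, without overlap in either.

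**Figure D1:**
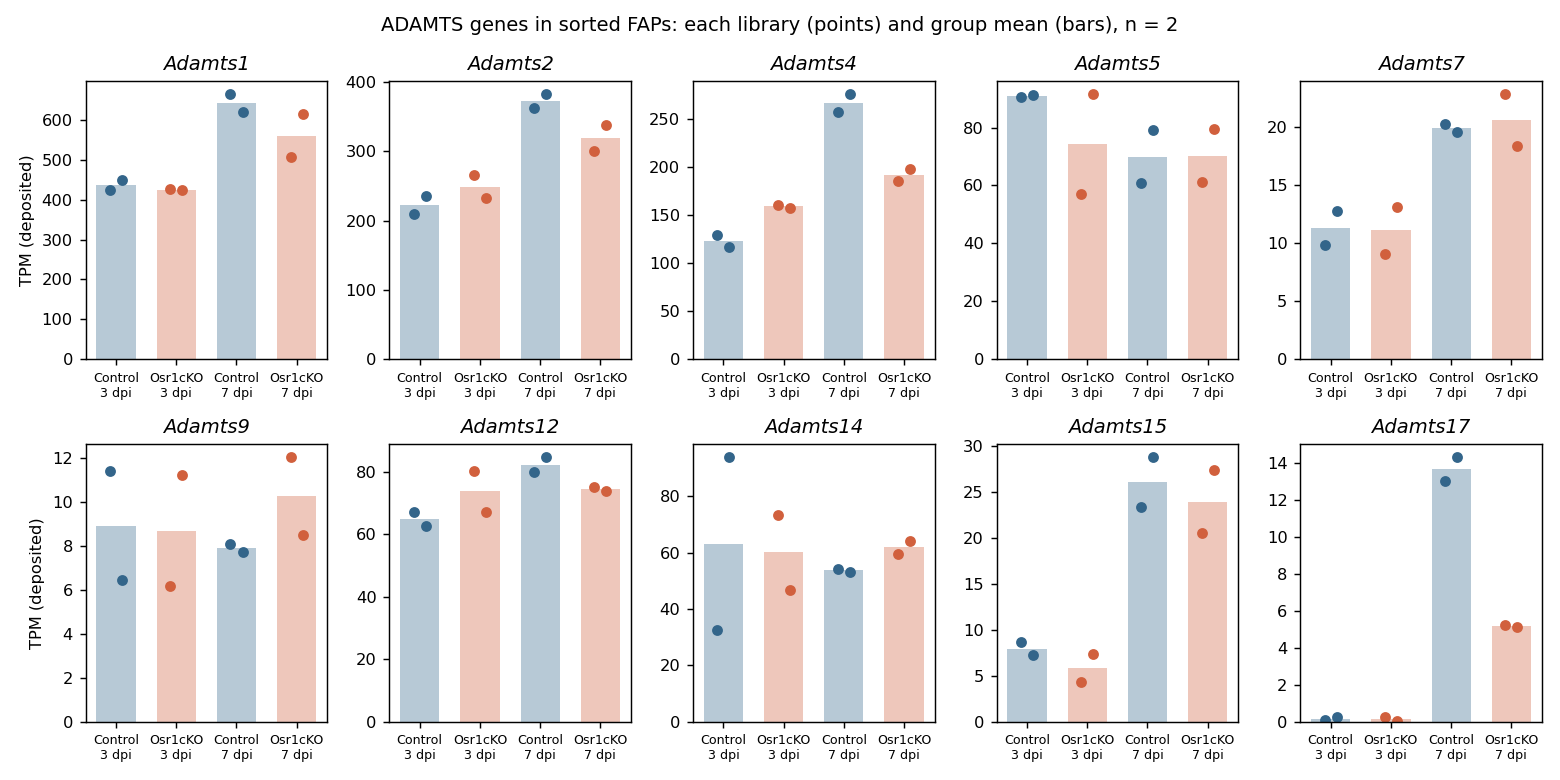
Deposited TPM of each ADAMTS gene (linear y axis from 0, own scale per panel) in control (blue) and Osr1cKO (orange) FAPs at 3 and 7 dpi; points are libraries and bars are the means of 2. Adamts17 lies between 0.0590 and 0.254 TPM in the 4 libraries of 3 dpi and between 5.12 and 14.3 TPM in those of 7 dpi.

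**Figure D2:**
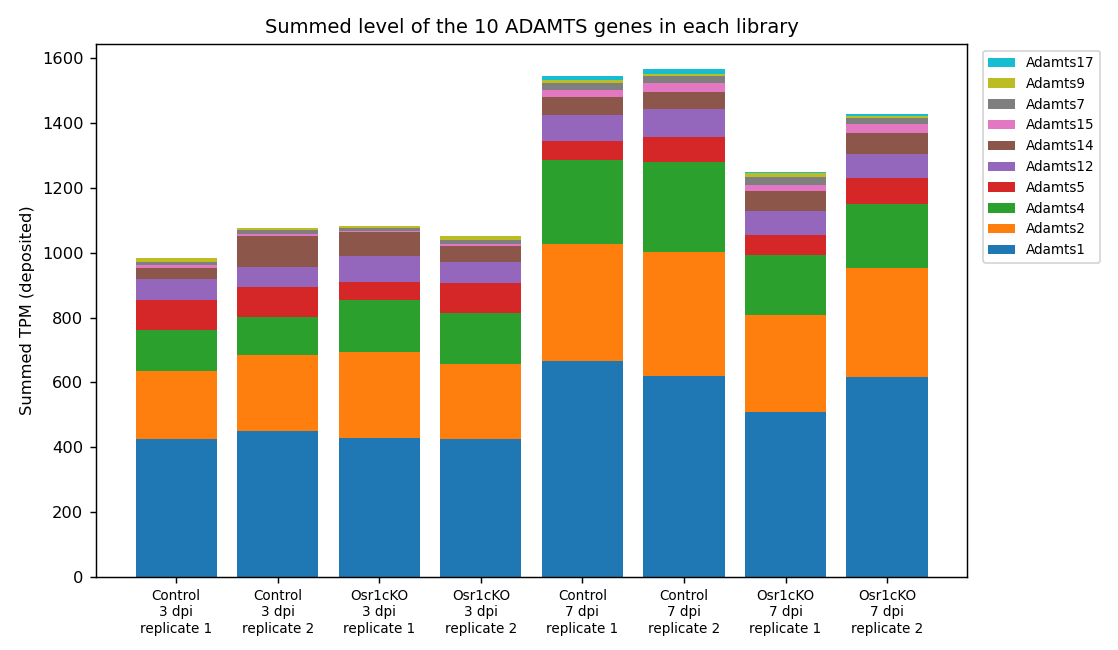
Stacked deposited TPM of the 10 ADAMTS genes in each library (y axis from 0), coloured by gene. The totals run from 983 to 1084 TPM at 3 dpi, and reach 1545 and 1566 TPM in controls and 1250 and 1429 TPM in Osr1cKO at 7 dpi.

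Promoter sequence was read from RefSeq windows on GRCm38.p6, 250 bases before to 50 bases after the start, which matched 6 of the 10 genes (Adamts1, Adamts2, Adamts9, Adamts12, Adamts14 and Adamts17). Their GC content ran from 55.7% in Adamts17 to 77.3% in Adamts2, all above the median of 52.7% over 32851 windows. After the expression values had been seen, 8 motifs were searched on both strands. Matches were found for the TATA box (TATAAA, in 13.6% of all windows) in Adamts1 and for the CCAAT box (CCAAT, in 37.4%) in Adamts17. None of the 6 windows held the AP-1 (TGANTCA, 7.81%), CREB (TGACGTCA, 1.79%), TEAD (GGAATG, 14.7%), RUNX (TGTGGT, 16.8%), OSR (ACNGTAGC, 2.14%) or heat shock element (0.603%) letters. The upstream bases of the most abundant and of the most changed gene are shown 5′ to 3′ with the matches in capitals, Adamts1 at chr16:85803114-85803213 on the minus strand (positions -100 to -1 from the start) and Adamts17 at chr7:66839595-66839694 on the plus strand (-140 to -41).
Adamts1: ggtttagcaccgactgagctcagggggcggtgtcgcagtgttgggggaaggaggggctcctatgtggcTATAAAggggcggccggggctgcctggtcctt
Adamts17: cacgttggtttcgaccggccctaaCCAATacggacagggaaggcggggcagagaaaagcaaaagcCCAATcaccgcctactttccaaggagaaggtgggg
The TATA box letters of Adamts1 begin at position -32 and the CCAAT letters of Adamts17 at -116 and -75, all on the coding strand. Such matches describe the sequence and say nothing of factor binding.

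Each comparison was tested over all expressed genes with limma on log2(TPM + 1) after scaling between libraries, so fold changes understate those of low genes. From 3 to 7 dpi a call needed a fold over 1.2 and an adjusted p under 0.1. In controls 7 of the 10 genes rose and 0 fell, where 22.7% of the 16525 genes tested rose and 27.3% fell. The 7 calls in controls were all lost without control replicate 2 of 7 dpi, where 0 of all genes passed, and 3 were left without replicate 1 of 7 dpi. In Osr1cKO 5 rose and 0 fell, where 27.2% of 16279 genes rose and 29.4% fell. The median log2 change of the 10 genes was 0.71 in controls and 0.25 in Osr1cKO, against -0.01 and -0.0011 over all genes tested. Between genotypes at 3 dpi, where the threshold of the study's methods is a fold over 1.2 and an unadjusted p under 0.05, Adamts4 was the 1 gene called higher (2.4% of 15699 genes) and 0 were called lower (3.87%). At 7 dpi, with the adjusted p under 0.1, Adamts17 was the 1 gene called lower (0.0483% of 16578 genes) and 0 were called higher (0.0181%). At an unadjusted p under 0.05 instead, 5 of the 10 were lower in Osr1cKO at 7 dpi, against 5.83% of all genes. The 5 comparisons are not independent, since each group enters more than 1 of them.

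**Figure D3:**
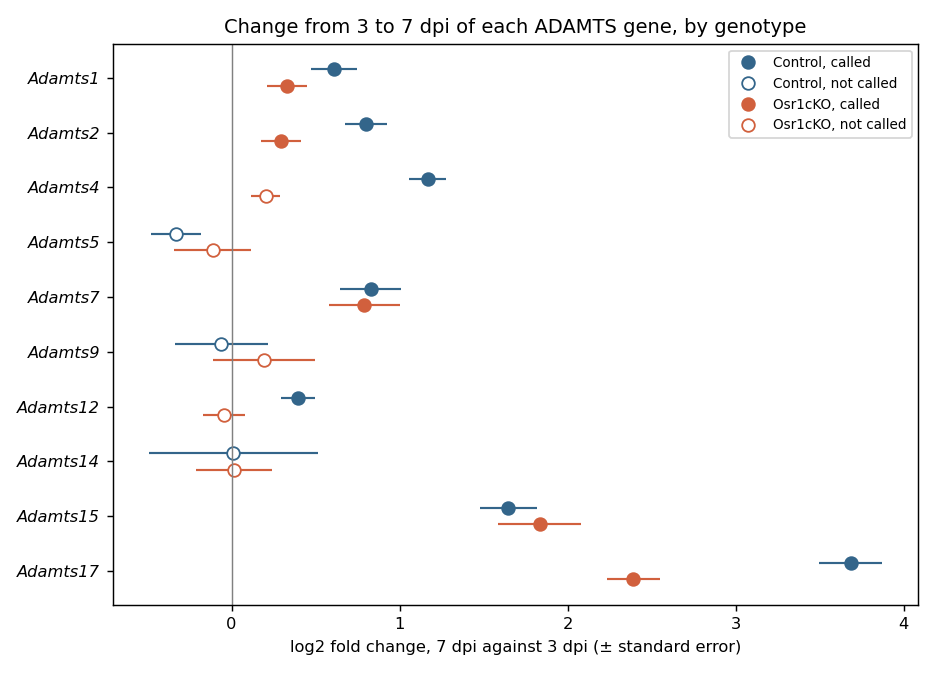
Log2 fold change on the log2(TPM + 1) scale from 3 to 7 dpi (x axis, points, with standard errors as bars) for each gene in control (blue) and Osr1cKO (orange) FAPs; filled points passed a fold over 1.2 and an adjusted p under 0.1. 7 genes are filled in controls and 5 in Osr1cKO, and Adamts17 lies farthest to the right in both.

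Among the proteoglycan-cleaving members, Adamts1 (chr16:85793827-85803113, minus strand) was the most abundant of the 10. It was at 425 and 450 TPM in controls and 427 and 424 TPM in Osr1cKO at 3 dpi, and at 666 and 620 TPM in controls and 508 and 615 TPM in Osr1cKO at 7 dpi. All libraries of 7 dpi were above all of 3 dpi. Adamts1 rose in controls by a log2 change of 0.61 ± 0.14 (SE, adjusted p = 0.0249) and in Osr1cKO by 0.33 ± 0.12 (adjusted p = 0.0696). The call in controls was lost without either control library of 7 dpi. The call in Osr1cKO was lost with the replicate block (adjusted p = 0.106), no filter (0.32), all libraries in 1 fit (0.116) and without Osr1cKO replicate 2 of either day (0.118 and 0.222). At 7 dpi the mutant libraries were below both controls, but the nearest pair was 615 and 620 TPM. The scaled log2 difference was -0.33 ± 0.11 (adjusted p = 0.346), and without scaling it was -0.20.

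Adamts4, an aggrecanase (chr1:171250421-171260637), had genotype differences of opposite sign at the 2 days, without overlap at either, as did Adamts12. It was at 129 and 117 TPM in controls and 161 and 157 TPM in Osr1cKO at 3 dpi, and at 257 and 276 TPM in controls and 185 and 198 TPM in Osr1cKO at 7 dpi. The mutant libraries were thus above both controls at 3 dpi (as in 18.2% of all genes tested) and below both at 7 dpi (10.7%). The log2 difference at 3 dpi was 0.37 ± 0.12 (adjusted p = 0.774), which passed only through the unadjusted threshold of that day. It no longer passed with the replicate block (adjusted p = 0.844). Nor did it pass without either Osr1cKO library (log2 differences of 0.33 and 0.42) or without control replicate 2 (log2 difference of 0.30). The log2 difference at 7 dpi was -0.60 ± 0.07 (adjusted p = 0.15), and with limma-voom on recovered fragments it passed at -0.61 (adjusted p = 0.0392). Adamts4 rose from 3 to 7 dpi in controls by 1.17 ± 0.11 on the log2 scale (adjusted p = 0.00425). In Osr1cKO its change of 0.20 ± 0.09 missed the threshold (adjusted p = 0.103), but without scaling it was 0.27 and passed (adjusted p = 0.0506).

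Adamts5, the other major aggrecanase, lies 53059 bases from Adamts1 on the same strand (chr16:85856173-85901828) but had another pattern. It was at 90.6 and 91.2 TPM in controls and 56.9 and 91.5 TPM in Osr1cKO at 3 dpi, and at 60.8 and 79.1 TPM in controls and 61.0 and 79.5 TPM in Osr1cKO at 7 dpi. Both late control libraries were below both early ones, with a log2 change of -0.33 ± 0.15 (adjusted p = 0.138), and the genotypes overlapped at both days. No comparison called Adamts5. Its low value at 3 dpi came from 1 Osr1cKO library, without which the change to 7 dpi in Osr1cKO was -0.45 (adjusted p = 0.0223) in place of -0.11.

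Adamts9, a versican-cleaving protease (chr6:92772699-92943492), was low throughout. It was at 11.4 and 6.45 TPM in controls and 6.18 and 11.2 TPM in Osr1cKO at 3 dpi, and at 8.08 and 7.71 TPM in controls and 12.1 and 8.49 TPM in Osr1cKO at 7 dpi. The replicates of 3 dpi differed within each genotype by more than the group means did. It was not called in any comparison, although both mutant libraries exceeded both controls at 7 dpi (log2 difference 0.21 ± 0.19, adjusted p = 0.702). Adamts9 shares 1381 bases of exon with A730049H05Rik on the opposite strand, 9.18% of its exon length, and whether counting used strand is not given in the sources used here.

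Adamts15, also a versicanase (chr9:30899155-30922452), rose strongly with time in both genotypes. It was at 8.65 and 7.23 TPM in controls and 4.33 and 7.32 TPM in Osr1cKO at 3 dpi, and at 23.4 and 28.8 TPM in controls and 20.5 and 27.3 TPM in Osr1cKO at 7 dpi. The log2 change was 1.65 ± 0.17 in controls (adjusted p = 0.00501) and 1.83 ± 0.25 in Osr1cKO (adjusted p = 0.00402), with mean TPM 3.28-fold and 4.11-fold higher. Genotypes overlapped at both days, with log2 differences of -0.42 ± 0.27 at 3 dpi and -0.25 ± 0.16 at 7 dpi.

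Of the procollagen N-proteinases, Adamts2 (chr11:50602084-50807573) was the second most abundant of the 10. It was at 209 and 235 TPM in controls and 265 and 232 TPM in Osr1cKO at 3 dpi, and at 362 and 383 TPM in controls and 300.2 and 338 TPM in Osr1cKO at 7 dpi. It rose with time in controls by 0.80 ± 0.13 on the log2 scale (adjusted p = 0.0107) and in Osr1cKO by 0.30 ± 0.12 (adjusted p = 0.0903). The call in controls was lost without either control library of 7 dpi. The call in Osr1cKO was lost with the replicate block (adjusted p = 0.136), no filter (0.411), all libraries in 1 fit (0.158) and without Osr1cKO replicate 2 of 3 dpi (0.29) or either Osr1cKO library of 7 dpi (0.137 and 0.242). The mutant libraries were both below the controls at 7 dpi, with a scaled log2 difference of -0.35 ± 0.08 (adjusted p = 0.274) and -0.22 without scaling. Adamts14 (chr10:61197112-61273438) gave no call, and its replicates diverged at 3 dpi, where it was at 32.5 and 94.0 TPM in controls and 73.4 and 46.8 TPM in Osr1cKO. At 7 dpi it was at 54.2 and 53.3 TPM in controls and 59.7 and 64.2 TPM in Osr1cKO, close together within each genotype. The log2 genotype difference at 7 dpi was 0.07 ± 0.07 (adjusted p = 0.718). In controls its change with time was 0.01 ± 0.50 with both early libraries, 0.82 without control replicate 2 of 3 dpi and -0.76 without control replicate 1 of 3 dpi.

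Adamts7 (chr9:90163069-90208071) rose with time in both genotypes. It was at 9.83 and 12.7 TPM in controls and 9.06 and 13.1 TPM in Osr1cKO at 3 dpi, and at 20.2 and 19.5 TPM in controls and 22.8 and 18.3 TPM in Osr1cKO at 7 dpi. The log2 change was 0.83 ± 0.18 in controls (adjusted p = 0.0232) and 0.79 ± 0.21 in Osr1cKO (adjusted p = 0.0305), and the genotypes overlapped at both days. The call in controls was lost without either control library of 7 dpi. The call in Osr1cKO was lost with no filter (adjusted p = 0.13) and without Osr1cKO replicate 1 of 7 dpi (0.129). Adamts12 (chr15:11064790-11349231), its closest relative, was at 67.0 and 62.6 TPM in controls and 80.3 and 67.2 TPM in Osr1cKO at 3 dpi, and at 79.8 and 84.7 TPM in controls and 75.0 and 73.8 TPM in Osr1cKO at 7 dpi. As with Adamts4, the mutant libraries were above both controls at 3 dpi and below both at 7 dpi, but by little: at 3 dpi the nearest pair was 67.0 and 67.2 TPM. The log2 differences were 0.18 ± 0.15 (adjusted p = 0.876) and -0.27 ± 0.07 (adjusted p = 0.305). It rose with time in controls by 0.39 ± 0.10 (adjusted p = 0.0358). That call was lost with the replicate block (adjusted p = 0.108) and without either control library of 7 dpi. In Osr1cKO the change was -0.04 ± 0.12.

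Adamts17 (chr7:66839735-67153171) went from near absence to a moderate level. At 3 dpi it was at 0.0931 and 0.243 TPM in controls and 0.254 and 0.0590 TPM in Osr1cKO, which were 9, 24, 25 and 6 fragments. At 7 dpi it was at 13.0 and 14.3 TPM in controls (1092 and 1229 fragments) and at 5.24 and 5.12 TPM in Osr1cKO (391 and 382 fragments). All late libraries were far above all early ones, and the late mutant libraries were well below the late controls. Mean TPM was 81.5-fold higher at 7 than at 3 dpi in controls and 33.0-fold higher in Osr1cKO, ratios that rest on few early fragments. On the log2(TPM + 1) scale the rise was 3.68 ± 0.19 (adjusted p = 0.00362) and 2.39 ± 0.16 (adjusted p = 0.0012), and the gene entered these tests only through its late libraries. The genotype difference at 7 dpi was -1.36 ± 0.13 (adjusted p = 0.0943), the 11th smallest p of 16578 genes and the last to pass. Leaving out any 1 library kept it between -1.42 and -1.31, and the other settings between -1.54 and -1.25. The call held with the other pseudocounts, median-of-ratios scaling, robust and voom fits and without either control library. It was missed with no filter (adjusted p = 0.387), a TPM filter (0.12), no scaling (0.101), all libraries in 1 fit (0.175), the replicate block (0.108) and without either Osr1cKO library (0.155 and 0.146). No exon of Adamts17 overlaps an exon of another annotated gene.

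**Figure D4:**
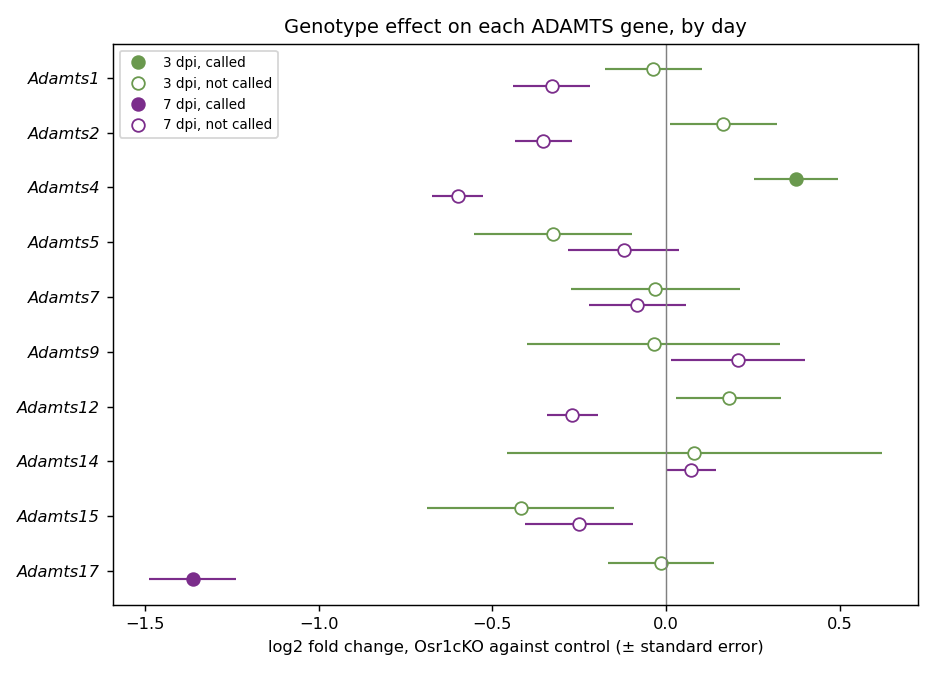
Log2 fold change on the log2(TPM + 1) scale of Osr1cKO against control FAPs (x axis, points, with standard errors as bars) for each gene at 3 dpi (green) and 7 dpi (purple); filled points passed that day's threshold. Adamts4 is filled at 3 dpi (0.37) and Adamts17 at 7 dpi (-1.36). Adamts2, Adamts4, Adamts9 and Adamts12 lie on opposite sides of 0 at the 2 days.

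At 7 dpi the genotype differences of the 10 genes were negative for 8 and positive for 2, with a median of -0.26, against 0.0063 over all genes tested. In deposited TPM 5 of the 10 were lower in both mutant libraries than in both controls, as were 10.7% of all genes tested, and 2 were higher in both (42.8%). At 3 dpi these counts were 0 (18.0%) and 2 (18.2%). Scaling between libraries moved the median of all genes at 7 dpi by 0.10 on the log2 scale, and the differences of Adamts1, Adamts2, Adamts4, Adamts12 and Adamts17 stayed negative with and without it. Those of Adamts5 and Adamts7 turned from -0.12 and -0.08 to 0.0061 and 0.04. Other lists differed between genotypes at this day, with 0 genes called. All 12 early response genes had negative differences, with a median log2 difference of -0.26, as large as that of the ADAMTS genes. The median was -0.54 over 5 myofiber markers (4 negative), 0.26 over 6 endothelial markers (all positive) and 0.80 over 4 tenocyte markers (all positive). It was -0.147 over 9 FAP markers (all negative), -0.115 over 5 muscle stem cell markers (all negative) and 0.107 over 7 leukocyte markers (all positive). Mural, Schwann and erythroid markers were of mixed sign. The part of any of these in the ADAMTS differences was not tested.

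Whether the genotype difference itself changed between days was tested as an interaction over all libraries. Of the 17371 genes tested 0 passed an adjusted p under 0.05 with limma (0%) and 0 with limma-voom, while 1208 had an unadjusted p under 0.05. At an unadjusted p under 0.05, 4 of the 10 had a lower genotype difference at 7 than at 3 dpi, where 3.78% of all genes did, and 0 had a higher one (3.17%). The log2 difference between the genotype effects was -1.02 ± 0.13 for Adamts4 (adjusted p = 0.159), the 8th smallest p of all genes. It was -1.36 ± 0.24 for Adamts17 (adjusted p = 0.389), -0.57 ± 0.18 for Adamts2 (adjusted p = 0.652) and -0.50 ± 0.16 for Adamts12 (adjusted p = 0.652). Without control replicate 1 of 3 dpi the value for Adamts4 was -1.05 and passed (adjusted p = 0.037). A change of the genotype difference between days was thus not shown for any of the 10 by this test.

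Likeness of pattern over the 8 libraries is given as correlations of scaled log2(TPM + 1), which share the 2 days and so largely follow them. Adamts2 and Adamts4 were alike (r = 0.949), as were Adamts1 and Adamts17 (r = 0.946) and Adamts15 and Adamts17 (r = 0.936). These pairs are not separate groups: Adamts2 was also alike with Adamts1 (r = 0.946) and with Adamts17 (r = 0.934). Adamts9 and Adamts14 ran opposite to each other (r = -0.765), and Adamts5 was at most 0.0972 with any other member. Among all 17371 genes the nearest to Adamts1 were Dnajb1 and Hsph1 (r = 0.99 for both), a pair of heat shock chaperone genes. The nearest to Adamts15 was Dcn, the proteoglycan decorin (r = 0.997), to Adamts14 Mmp9, a gelatinase (r = 0.961), and to Adamts17 Tsga13 (r = 0.996). For Adamts2 they were Sh2b1 (r = 0.992) and the Hedgehog effector Gli2 (r = 0.987), for Adamts4 Tnrc6c (r = 0.992) and Bach2 (r = 0.991), and for Adamts5 Gng12 (r = 0.95) and Eps8 (r = 0.939). These genes were picked as the highest of all, so their r describes these libraries only.

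Of the other ADAMTS family genes, 9 in the list, 7 could be tested with time in controls and 8 in Osr1cKO, and 3 rose and 0 fell in both. Adamts10, which binds fibrillin, rose by a log2 change of 1.58 in controls and 1.33 in Osr1cKO, and Adamts16 by 2.71 and 2.42. Adamts19 rose in both genotypes, by 1.22 in controls. The rises of Adamts16 and Adamts19 started from low levels, 0.0940 to 1.43 TPM and 0.343 to 0.822 TPM at 3 dpi. Between genotypes Adamts3, a procollagen N-proteinase related to Adamts2 and Adamts14, was called higher at 3 dpi, by the unadjusted threshold only. It was at 17.5 and 18.0 TPM in Osr1cKO and 13.2 and 12.1 TPM in controls (log2 difference 0.46, adjusted p = 0.774). At 7 dpi its difference was again 0.46 (adjusted p = 0.351). The ADAMTS-like genes, secreted relatives without a protease domain, numbered 7, all tested: 4 rose and 0 fell with time in controls, and 5 rose and 1 fell in Osr1cKO. Adamtsl2, which binds fibrillin and latent TGFβ-binding protein, rose by 1.80 and 1.75. Papln (0.93 and 0.84) and Thsd4 (0.65 and 0.44) rose in both genotypes. Both were low, Papln at 0.136 to 0.600 TPM at 3 dpi and Thsd4 at 0.141 to 0.952 TPM over all libraries. Between genotypes at 3 dpi 1 was called higher and 2 lower by the unadjusted threshold, Adamtsl4 with the smallest p (-0.75, adjusted p = 0.774).

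The substrates did not follow 1 direction. Vcan, the versican gene, was at 285 and 283 TPM in controls and 281 and 369 TPM in Osr1cKO at 3 dpi, and at 235 and 213 TPM in controls and 295 and 272 TPM in Osr1cKO at 7 dpi. Its log2 change with time was -0.29 in controls (adjusted p = 0.119) and -0.25 in Osr1cKO (adjusted p = 0.227), and its genotype difference at 7 dpi was 0.21 (adjusted p = 0.454). Acan, the aggrecan gene, rose with time by 2.50 and 2.78, from a low level of 0.108 to 1.31 TPM over the libraries of 3 dpi. Of 6 procollagen genes 0 were called with time in controls and Col2a1 was the 1 called in Osr1cKO (0.56). Col2a1 was low there, at 0.333 and 0.273 TPM at 3 dpi and 1.02 and 0.878 TPM at 7 dpi. Of 6 other matrix substrates and partners 4 rose in controls, among them Comp (0.99), Fbn2 (1.53) and Fbln1 (1.06). Between genotypes at 3 dpi Fbn2 was called higher (0.97) and Comp lower (-0.54) by the unadjusted threshold only (adjusted p = 0.774 for both). In Osr1cKO 3 rose, Comp (1.55), Fbn2 (0.68) and Fbln1 (0.68), and Fbn1, the main fibrillin gene, fell (-0.64).

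Timp3 was at 23.1 and 26.0 TPM in controls and 54.2 and 22.7 TPM in Osr1cKO at 3 dpi, and at 82.9 and 87.7 TPM in controls and 73.7 and 112 TPM in Osr1cKO at 7 dpi. It rose with time by a log2 change of 1.81 in controls (adjusted p = 0.00376) and 1.29 in Osr1cKO (adjusted p = 0.0571), with overlap of the genotypes at both days. Timp2 rose as well (1.74 and 1.79), while Timp1 fell (-1.88 and -1.72). Lrp1, the endocytic receptor that clears several of these proteases, fell by 0.39 and 0.62 on the log2 scale. Of 5 maturation genes, the convertase gene Pcsk6 rose (1.66 and 1.02) and Furin fell (-0.45 and -0.54) in both genotypes. Pcsk5, another convertase gene, fell in controls (-0.60, adjusted p = 0.0404), and its change of -0.80 in Osr1cKO was not called (adjusted p = 0.145). Of 4 procollagen C-proteinase genes and enhancers 0 were called in controls, and Pcolce2 fell in Osr1cKO (-0.63). Of 12 early response genes, also raised by tissue dissociation, 4 rose and 0 fell in controls and 5 rose and 2 fell in Osr1cKO with time. Among them Atf3 rose by 1.85 and 1.96, and their part in the ADAMTS changes was not tested. At 7 dpi none of the genes of these lists was called between genotypes at the adjusted threshold.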

How the data were processed

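RNA of FACS-sorted FAPs was sequenced as stranded polyA paired-end libraries. Per the study's methods and the submitters' processing notes, the authors mapped reads to mm10 with STAR and deposited TPM computed from DESeq2-normalized fragment counts; the counting tool, annotation and use of strand are not given in the sources used here. Of 55385 entries a library, 109 further entries of repeated symbols were left out. GENCODE vM21 exon lengths returned fragments: 98.7% to 98.9% of values under 50 fragments were within 0.02 of a whole number. These served for filtering and for limma-voom.

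Libraries were brought to a common scale with trimmed log ratios (30% trimmed at each end) and tested as log2(TPM + 1) with limma 3.58.1 in R 4.3.3 (lmFit, eBayes with trend), with Benjamini-Hochberg adjustment over all genes tested. Genes needed 10 fragments in 2 libraries and 15 over the fit, or a mean TPM of 1 where no length was known. The interaction used all 8 libraries, the other tests 4. p-values measure the spread between 2 libraries a group. On simulated data the adjusted calls held somewhat more false ones than their nominal share, and the interaction test recovered large changes but missed doublings, so its lack of calls does not show that genotype differences were equal between days.

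Members, lists and motifs were chosen with earlier results of these data known. All members are named with every library. Of each list the genes with smallest p among those passing were named, at most 4, with Timp3, Vcan and Osr1 always. For likeness the highest Pearson r were taken. The replicate numbers did not pair the libraries (correlation of deviations -0.16 to 0.064). Alternatives were other pseudocounts (0.5, 0.1), filters, scalings, robust and voom fits, 1 fit of all libraries, a replicate block, other thresholds and leaving out each library. An exon overlap of a member with another gene is not reported here.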

Additional observations from a re-analysis of the deposited data

Results flagged for a closer look

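Adamts4 and Adamts12 were singled out because their genotype difference had opposite directions at the 2 days, with both Osr1cKO libraries above both controls at 3 dpi and below both at 7 dpi. Of all genes tested, 18.2% were higher in this way at 3 dpi and 10.7% lower at 7 dpi. The share with both was not computed. The log2 difference between the effects was -1.02 for Adamts4 (limma interaction, adjusted p = 0.159) and -0.50 for Adamts12 (adjusted p = 0.652), and neither passed the threshold of 0.05.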

How the results depend on the processing

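Of the members' log2 changes under other settings, those that left out no library changed sign only where the value was near 0 and not called. With all 8 libraries in 1 fit the 3 dpi differences of Adamts1, Adamts7 and Adamts9 were 0.0031, 0.0049 and 0.00060. Without scaling the 7 dpi differences of Adamts5 and Adamts7 were 0.0061 and 0.041, the change of Adamts14 in controls was -0.044, that of Adamts12 in Osr1cKO 0.019, and the interactions of Adamts7 and Adamts14 were 0.074 and 0.12. With no filter the change of Adamts14 was -0.074 in controls and -0.11 in Osr1cKO, with all libraries in 1 fit -0.026 in Osr1cKO, and with a TPM filter that of Adamts12 in Osr1cKO was 0.0068. The cause was not tested.

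The number of members called higher at 3 dpi was 0 with the replicate block and 0 at an adjusted p under 0.1. Members called lower at 7 dpi numbered 0 with a TPM filter, 0 with no filter, 0 without scaling, 0 with all libraries in 1 fit, 0 with the replicate block, 2 with limma-voom and 5 at an unadjusted p. Members called higher with time in Osr1cKO numbered 2 with no filter, 3 with all libraries in 1 fit, 3 with the replicate block and 6 without scaling, against 5 with the other settings that kept every library. The block ended 1 more call, that of Adamts12 with time in controls. A block crossing the replicate numbers, added after seeing the data, called 1 member higher at 3 dpi and 7 with time in controls. The counts over all genes tested moved as well over the settings that kept every library. They ran from 0 to 928 higher at 3 dpi and from 0 to 966 lower at 7 dpi. With time they ran from 2594 to 4591 higher in controls and from 3227 to 4715 higher in Osr1cKO.

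Leaving out 1 library at a time left a single library in 1 group. The numbers called, among members and over all genes tested, then depended on which library was left out. In controls the calls of members with time were lost without replicate 2 of 7 dpi, as were those of all genes tested. Fewer were left without replicate 1 of 7 dpi. Some uncalled differences changed sign. At 3 dpi Adamts1 ranged from -0.093 to 0.0036, Adamts7 from -0.25 to 0.19, Adamts9 from -0.41 to 0.32 and Adamts14 from -0.68 to 0.83. Adamts17 passed the filter in only 2 of these fits, with -0.11 and 0.11. At 7 dpi Adamts5 ranged from -0.30 to 0.056, Adamts7 from -0.27 to 0.091 and Adamts9 from -0.056 to 0.46. With time in controls Adamts9 ranged from -0.38 to 0.29 and Adamts14 from -0.76 to 0.82. With time in Osr1cKO Adamts5 ranged from -0.45 to 0.19, Adamts9 from -0.20 to 0.55, Adamts12 from -0.21 to 0.079 and Adamts14 from -0.34 to 0.33. In the interaction Adamts5 ranged from -0.16 to 0.48, Adamts7 from -0.32 to 0.13, Adamts9 from -0.17 to 0.57, Adamts14 from -0.85 to 0.74 and Adamts15 from -0.18 to 0.44.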
